A study of Saccharomyces cerevisiae with 12 samples.

Results

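Budding yeast cells carrying a galactose-inducible YOX1 plasmid were compared after 2 h of galactose and hydroxyurea (HU) with the same cultures sampled at 0 h, by RNA-seq. These are 4 of the 12 libraries of the series, chosen by their labels: 2 from YOX1 cells at 2 h and 2 from YOX1 cells at 0 h. YOX1 cells are wild-type MATa haploids of the laboratory strain BY4741, which lacks working HIS3, LEU2, MET17 and URA3 genes, and they hold pBY011-YOX1, a plasmid selected by growth without uracil in which the GAL1-10 promoter drives YOX1. At 2 h they had been given 2% galactose and 200 mM HU together, and at 0 h they were untreated and growing on raffinose alone. A further 4 libraries served as the comparison: cells with pBY011, the control vector, at 2 h in the same galactose and HU and at 0 h without either. The 4 h samples entered only the scaling of the libraries, the filter for completed estimates and the shared estimate of spread. Each group has 2 libraries, described in the methods as independent biological replicates. No label ties the replicates of different groups together, so the main fit compared group means without pairing. All groups carry a plasmid, and none received galactose or HU alone. The changes given below therefore belong to galactose, HU, induced Yox1 and 2 h of culture together, and galactose and HU cannot be told apart in these data.

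Galactose is sensed in yeast by Gal3, which relieves the Gal80 block on the activator Gal4, and Gal4 then switches on the genes that import and metabolise the sugar. HU starves the replication fork of deoxyribonucleotides by inhibiting ribonucleotide reductase, the kinases Rad53 and Dun1 are activated, and cells arrest early in S phase. Yox1 is a homeodomain repressor that binds beside the MADS-box protein Mcm1 at the early cell cycle box (ECB), a promoter element of genes needed at the M/G1 boundary, among them the MCM genes of the replicative helicase.

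The promoter windows below are shown because the genes with the largest rises, and several whose changes differed between the vectors, carry them. They were read from the RefSeq R64 genome, which has the coordinates of sacCer3, on the strand of the gene, and are part of the 500 bases before the start codon. Capitals in the first 3 mark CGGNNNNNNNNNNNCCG, the letters bound by Gal4, and the GAL1 window lies between GAL1 and the divergent GAL10.
GAL1 (chrII:278548-278641, plus strand): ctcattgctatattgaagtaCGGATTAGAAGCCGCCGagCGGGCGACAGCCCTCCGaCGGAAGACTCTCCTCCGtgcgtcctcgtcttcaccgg
GAL7 (chrII:275683-275739, minus strand): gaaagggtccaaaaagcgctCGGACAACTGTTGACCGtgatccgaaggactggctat
GAL2 (chrXII:289776-289920, plus strand): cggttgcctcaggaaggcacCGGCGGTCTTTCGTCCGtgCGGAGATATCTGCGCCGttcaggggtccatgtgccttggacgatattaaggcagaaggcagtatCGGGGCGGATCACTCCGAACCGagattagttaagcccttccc
Capitals in the next 8 mark TTNCCNNNNNNGGNAA, the part of the ECB that Mcm1 binds. They come from 6 ECB genes and from SPO12 and MFA2, whose changes differed between the vectors.
MCM3 (chrV:86732-86787, plus strand): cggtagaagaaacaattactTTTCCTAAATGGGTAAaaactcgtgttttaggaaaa
MCM5 (chrXII:691381-691436, plus strand): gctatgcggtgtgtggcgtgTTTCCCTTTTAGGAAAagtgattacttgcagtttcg
MCM6 (chrVII:121050-121105, minus strand): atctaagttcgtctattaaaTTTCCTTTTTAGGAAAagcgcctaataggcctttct
MCM7 (chrII:625523-625594, plus strand): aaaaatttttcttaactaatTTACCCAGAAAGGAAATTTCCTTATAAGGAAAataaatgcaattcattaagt
CDC6 (chrX:69125-69196, plus strand): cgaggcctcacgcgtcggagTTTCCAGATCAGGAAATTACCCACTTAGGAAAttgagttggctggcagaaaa
SWI4 (chrV:386294-386349, minus strand): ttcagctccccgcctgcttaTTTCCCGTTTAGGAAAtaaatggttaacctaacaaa
SPO12 (chrVIII:401169-401224, plus strand): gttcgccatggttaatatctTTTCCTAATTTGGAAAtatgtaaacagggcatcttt
MFA2 (chrXIV:352150-352205, plus strand): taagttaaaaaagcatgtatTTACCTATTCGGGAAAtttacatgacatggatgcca
Both strands of 5977 promoters of equal length were searched. The Gal4 letters were found in 3.0% of them and before 8 of 10 galactose genes, and the Mcm1 letters in 1.9% of them and before 6 of 10 ECB genes. The Mcm1 letters, in this exact spelling, were not found before MCM2, MCM4, CLN3 or YHP1. Among other genes whose changes differed between the vectors, they were found before HSP150 and not before DBF2 or PRY1. They stood before all 7 MATa-specific genes and 3 of 12 genes of the CLB2 cluster, both listed below. ACGCGT, the MluI cell cycle box, was present in 5.4% of all promoters and before 14 of 20 G1 and S phase genes. A match describes letters only.

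The deposited values were FPKM (fragments scaled by transcript length and library depth), given for 7126 genes, of which 6807 averaged 1 FPKM or more across the YOX1 libraries used and had a completed estimate in every library. The implied depth of those 4 libraries was 10790000 to 18060000 fragments. The labels call the cells wild type and name neither the strain nor its markers. Of the genes deleted in BY4741, LEU2 was listed at 0 in all 4 libraries and MET17 reached at most 0.233 FPKM. The 4 MATalpha-specific genes summed to 39.5 to 44.5 FPKM at 2 h and 32.0 to 33.5 FPKM at 0 h. HIS3, which is only partly deleted in this strain, was listed at 59.2 and 71.0 FPKM at 2 h and at 41.1 and 68.6 FPKM at 0 h. URA3, the plasmid marker, was somewhat lower after treatment, with 325 and 309 FPKM at 2 h, against 404 and 383 FPKM at 0 h (log2 change -0.29 ± 0.10, SE), a call that was lost without any 1 of these 4 libraries.

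In YOX1 cells 1497 genes were higher at 2 h than at 0 h and 1537 were lower, which is 22.0% and 22.6% of the genes tested (limma on log2 of scaled FPKM + 1, Benjamini-Hochberg adjusted p under 0.05). Most of these changes were small. The median log2 change was 0.47 among the higher genes and -0.45 among the lower ones. Changes of at least 2-fold were called for 210 higher genes, or 3.09%, and for 188 lower genes, or 2.76%. In control cells 1273 genes, or 18.7%, were higher at 2 h and 1349, or 19.8%, were lower. No called gene had libraries that overlapped between 2 h and 0 h in YOX1 cells, a separation that was also seen in 69.8% of all genes tested. The count of higher genes rested partly on the deepest library: without replicate 2 at 2 h it was 964.

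**Figure D1:**
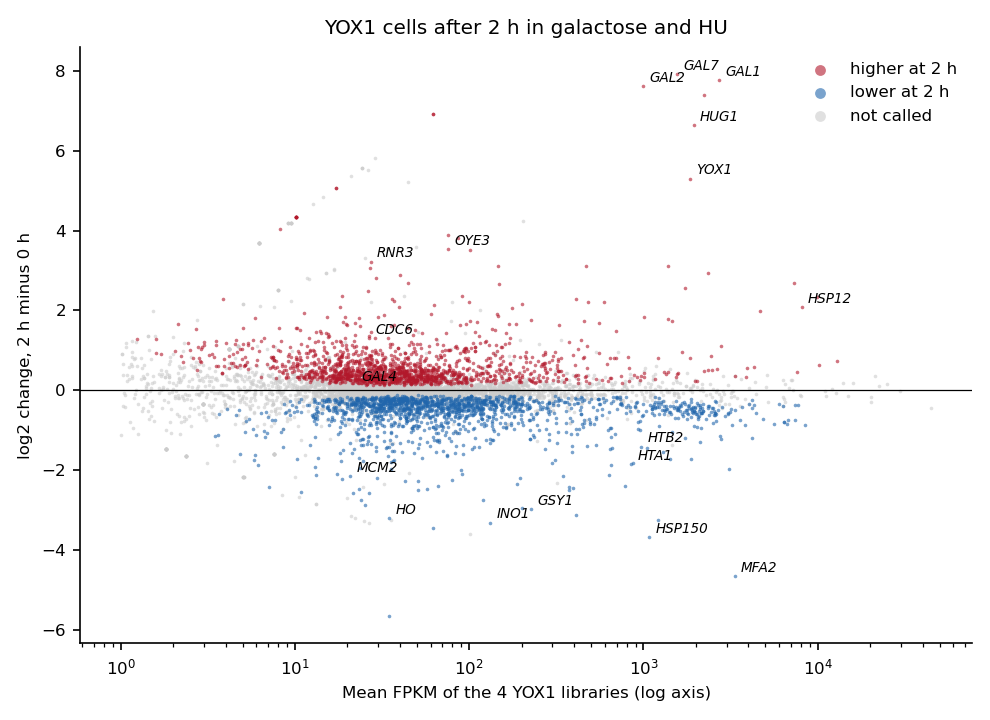
Log2 change in YOX1 cells (2 h minus 0 h, y axis) against the mean FPKM of the 4 YOX1 libraries (x axis, log scale), 1 point per gene tested. Red points are the 1497 genes called higher and blue points the 1537 called lower, on the log2(FPKM + 1) scale, and GAL1, GAL2, GAL7, HUG1 and YOX1 stand apart at high level and large rise.

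YOX1 (YML027W, chromosome XIII, 221406 to 222563) had 3862 and 3312 FPKM at 2 h, against 91.3 and 90.9 FPKM at 0 h, a log2 change of 5.30 ± 0.10 (SE here and below; adjusted p = 3.52e-08). In control cells, where only the chromosomal copy is present, YOX1 was at 30.9 and 37.5 FPKM at 2 h, against 30.8 and 29.8 FPKM at 0 h, so that plasmid and chromosomal transcripts are summed in the YOX1 cells and even their 0 h level lay above that of control cells. The difference between the changes was 5.12 ± 0.15 on the log2 scale (adjusted p = 2.99e-06).

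The structural genes of galactose use rose most of all. GAL1, galactokinase (YBR020W, chromosome II, 279021 to 280607), had 5549.9 and 5235 FPKM at 2 h, against 31.2 and 18.4 FPKM at 0 h (log2 change 7.77 ± 0.20, adjusted p = 1.48e-07). GAL7, the uridylyltransferase, had 3166 and 3041 FPKM at 2 h, against 13.6 and 10.6 FPKM at 0 h (log2 change 7.92 ± 0.15). GAL10, the epimerase, had 4458 and 4378 FPKM at 2 h, against 30.3 and 21.5 FPKM at 0 h (log2 change 7.40 ± 0.14). The permease GAL2 had 2035 and 1926 FPKM at 2 h, against 10.7 and 7.97 FPKM at 0 h (log2 change 7.61 ± 0.12). In all 4 the 2 h libraries were tightly grouped and lay far above those of 0 h, of which replicate 1 was the higher.

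The regulators moved less. GAL3, the sensor, had 194 and 180.2 FPKM at 2 h, against 15.2 and 16.3 FPKM at 0 h (log2 change 3.51 ± 0.08), and GAL80, which encodes the repressor of Gal4, had 231 and 225 FPKM at 2 h, against 62.1 and 65.5 FPKM at 0 h (log2 change 1.85 ± 0.06). GAL4 itself was not called, at 21.8 and 23.8 FPKM at 2 h, against 19.98 and 22.4 FPKM at 0 h, and neither were the phosphoglucomutase genes PGM1 (log2 change 0.05) and PGM2 (-0.20). GCY1, a glycerol dehydrogenase gene under Gal4, had 871 and 814 FPKM at 2 h, against 91.5 and 104 FPKM at 0 h (log2 change 3.12 ± 0.08); YOR121C, whose reads cannot be separated from it in an unstranded library, had 2639.9 and 2336 FPKM at 2 h, against 323 and 266 FPKM at 0 h. YDR010C, a locus next to GAL3 on chromosome IV, had 149.8 and 132 FPKM at 2 h, against 5.99 and 12.5 FPKM at 0 h, with about 12 fragments behind its lowest value. Of the 10 galactose genes 7 were called higher and 0 lower, all 7 at least 2-fold, and the median log2 change was 3.32 in YOX1 cells and 3.53 in control cells, against 0.00 over all genes tested in YOX1 cells. None of the 10 had a called difference between the vectors.

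**Figure D2:**
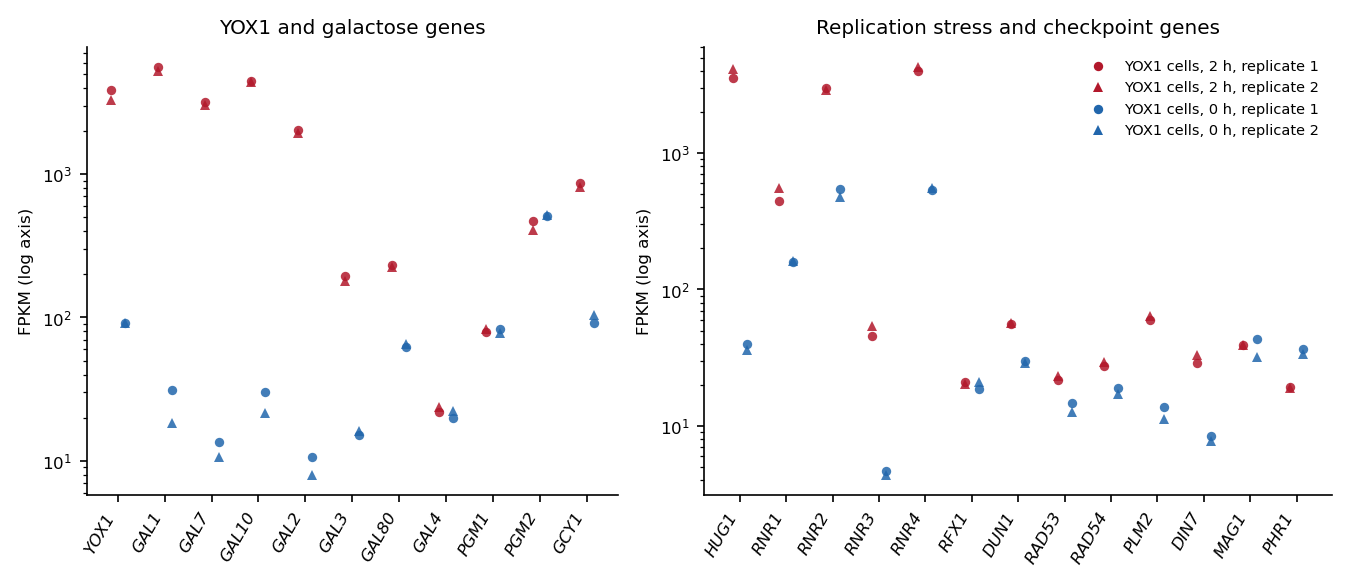
FPKM per library (log axis) of YOX1 and the 10 galactose genes (left panel) and of replication stress and checkpoint genes (right panel) in YOX1 cells; red marks are 2 h, blue marks 0 h, circles replicate 1 and triangles replicate 2. GAL1, GAL7, GAL10, GAL2, YOX1 and HUG1 show the widest gaps, while GAL4, PGM1, RFX1 and MAG1 overlap between the times.

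Genes of the replication checkpoint rose next. HUG1, a small inhibitor of ribonucleotide reductase that Rad53 and Dun1 induce, had 3531 and 4166 FPKM at 2 h, against 40.1 and 36.2 FPKM at 0 h (log2 change 6.64 ± 0.24, adjusted p = 7.28e-07). It is a short gene, with about 18 fragments behind its lowest value, and its level per length is uncertain. RNR3, the inducible large subunit, had 45.6 and 54.4 FPKM at 2 h, against 4.65 and 4.36 FPKM at 0 h (log2 change 3.22 ± 0.10). The small subunits followed, RNR4 with 4003 and 4259 FPKM at 2 h, against 537 and 552 FPKM at 0 h (log2 change 2.95 ± 0.07) and RNR2 with 2986 and 2912 FPKM at 2 h, against 547 and 479.8 FPKM at 0 h (log2 change 2.55 ± 0.06). RNR1, the main large subunit, had 442 and 552 FPKM at 2 h, against 159.8 and 162 FPKM at 0 h (log2 change 1.64 ± 0.09). For all 4 reductase genes the 2 h libraries lay above both 0 h libraries, and RNR3 stayed the lowest of them per length at both times.

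Downstream and repair genes changed by less. PLM2, which encodes a forkhead-associated domain protein, had 59.3 and 63.5 FPKM at 2 h, against 13.8 and 11.1 FPKM at 0 h (log2 change 2.24 ± 0.11), and the nuclease gene DIN7 had 28.8 and 32.8 FPKM at 2 h, against 8.46 and 7.68 FPKM at 0 h (log2 change 1.83 ± 0.08). The kinase genes DUN1 (log2 change 0.94 ± 0.05) and RAD53 (0.71 ± 0.08) and the recombination gene RAD54 (0.65 ± 0.06) rose as well. RFX1, the repressor of the RNR genes, and MAG1, a DNA glycosylase gene, were not called, with log2 changes of 0.08 and 0.09. PHR1, the photolyase gene, was the only one of the list to fall, to 19.1 and 18.9 FPKM at 2 h, against 36.6 and 33.8 FPKM at 0 h (log2 change -0.83 ± 0.09). In all, 11 of the 14 genes were higher and 1 lower, with a median of 1.31 in YOX1 cells and 1.59 in control cells.

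The G1 and S phase genes of the factors SBF and MBF, which are expressed while cells enter S phase, were mostly raised by small amounts: 14 of 20 were higher and 2 lower, with a median log2 change of 0.35. YOX1 is 1 of the 14, through the plasmid. MCD1, the cohesin subunit, had 76.0 and 89.4 FPKM at 2 h, against 48.2 and 44.5 FPKM at 0 h (log2 change 0.84 ± 0.07), and CDC45, which encodes a part of the active replicative helicase, had 27.2 and 28.8 FPKM at 2 h, against 18.2 and 15.6 FPKM at 0 h (log2 change 0.72 ± 0.06). The G1 cyclin genes CLN1 and CLN2 went the other way, with log2 changes of -0.50 ± 0.07 and -0.78 ± 0.06. CLN2 was at 44.6 and 47.1 FPKM at 2 h, against 79.0 and 82.2 FPKM at 0 h. In bulk samples such as these, a change in the share of cells at a stage of the cycle and a change in RNA per cell cannot be told apart.

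**Figure D3:**
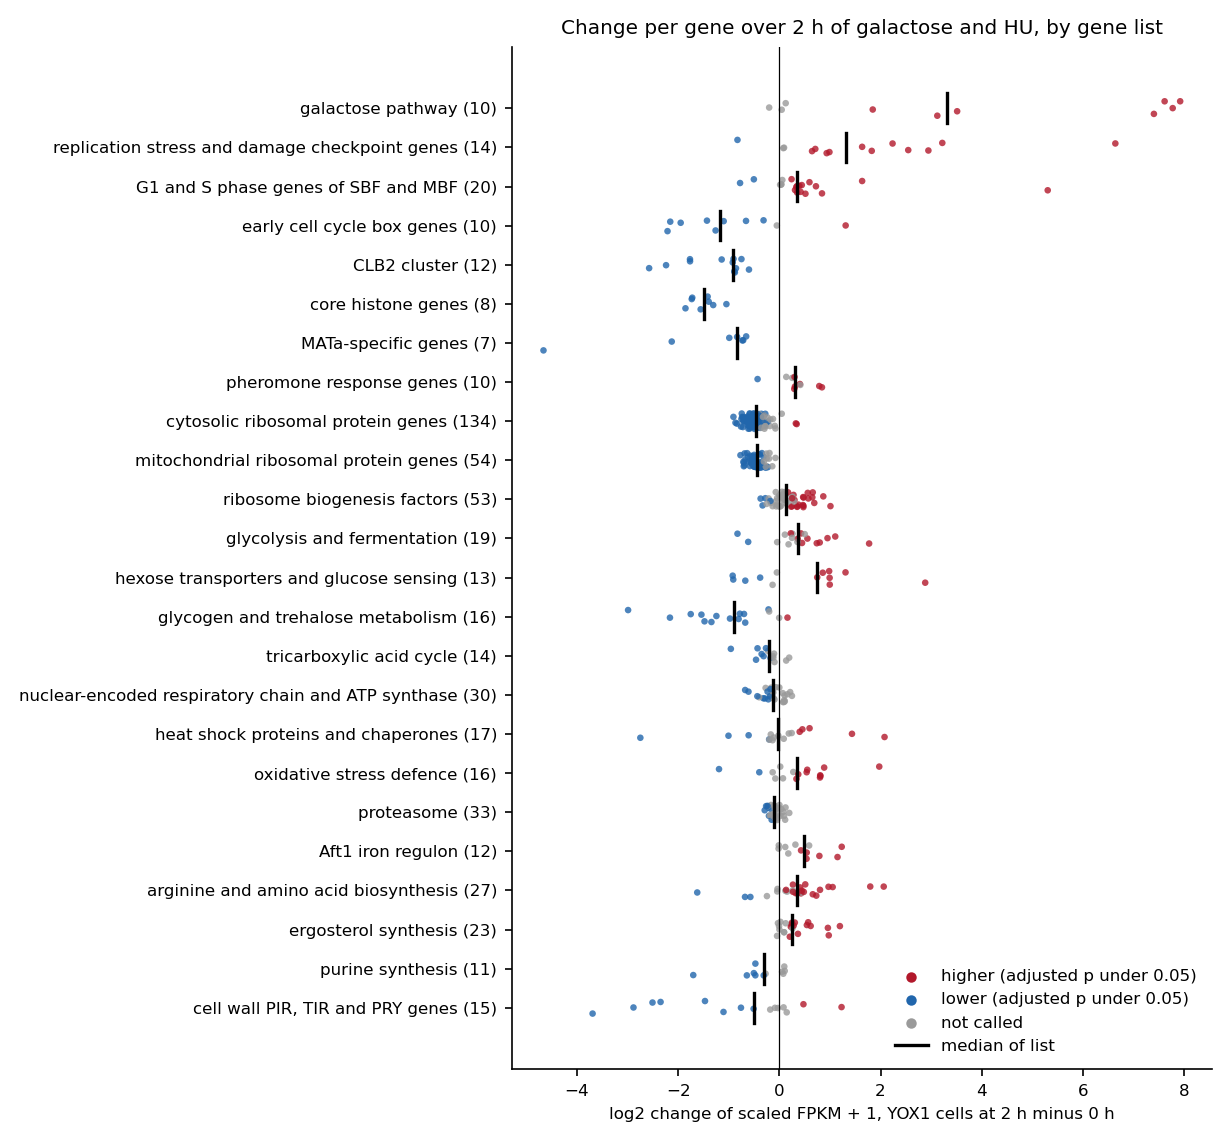
Log2 change in YOX1 cells (2 h minus 0 h) of every tested member of 24 gene lists, 1 point per gene; the number of tested genes follows each name and black bars are list medians. Red points were called higher, blue points lower and grey points neither; galactose genes reach above 7 on the log2 scale, and the 8 histone genes, the 12 genes of the CLB2 cluster and the 7 MATa-specific genes are all blue.

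ECB genes fell in YOX1 cells, with 8 of 10 lower, 1 higher and a median of -1.18, against a median of -0.22 in control cells. All 6 MCM genes fell. MCM2 (YBL023C, chromosome II, 174920 to 177526) had 6.44 and 7.15 FPKM at 2 h, against 37.7 and 31.4 FPKM at 0 h (log2 change -2.16 ± 0.09, adjusted p = 2.02e-06), and in control cells 26.7 and 24.4 FPKM at 2 h, against 30.9 and 31.1 FPKM at 0 h. MCM3 had 9.15 and 10.2 FPKM at 2 h, against 48.3 and 50.3 FPKM at 0 h in YOX1 cells (log2 change -2.21 ± 0.06). MCM5 had 8.23 and 9.63 FPKM at 2 h, against 40.4 and 35.7 FPKM at 0 h (log2 change -1.95 ± 0.09). At 2 h control cells had 34.8 and 32.3 FPKM of MCM3 and 28.3 and 26.6 FPKM of MCM5, and for all 3 genes both control 2 h libraries lay between the YOX1 2 h and the 0 h libraries. MCM4, MCM7 and MCM6 fell by 1.43, 1.26 and 1.10 on the log2 scale.

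The 4 other ECB genes did not follow the MCM genes closely. SWI4, the DNA-binding subunit of SBF, had 28.3 and 30.6 FPKM at 2 h, against 40.0 and 35.0 FPKM at 0 h (log2 change -0.31 ± 0.07), a call lost when the spread came from the 4 libraries alone, and it was higher at 2 h in control cells (log2 change 0.25). YHP1, which encodes the paralogue of Yox1, had 15.1 and 20.8 FPKM at 2 h, against 30.8 and 27.6 FPKM at 0 h (log2 change -0.66 ± 0.18), a call that was lost without either replicate 1. CLN3, the G1 cyclin at the start of the cascade, was not called, at 60.4 and 62.8 FPKM at 2 h, against 64.4 and 65.4 FPKM at 0 h. CDC6, which loads the MCM helicase, has 2 matches to the Mcm1 letters and rose: it had 36.2 and 39.9 FPKM at 2 h, against 15.3 and 14.7 FPKM at 0 h (log2 change 1.31 ± 0.07), and it rose in control cells too (log2 change 1.06).

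The test of the difference between the changes was called as more negative with the YOX1 vector for 7 of the 10 ECB genes. It was -1.90 ± 0.13 for MCM2 (adjusted p = 0.000502), -1.63 ± 0.09 for MCM3 (adjusted p = 0.000309), -1.51 ± 0.13 for MCM5 and -1.31 ± 0.08 for MCM4. It was smaller for MCM7 (-0.93 ± 0.13), MCM6 (-0.85 ± 0.10) and SWI4 (-0.56 ± 0.10, adjusted p = 0.0479), and it was not called for YHP1 (adjusted p = 0.205), CDC6 or CLN3. MCM3 overlaps the dubious locus YEL032C-A, whose change of -2.44 cannot be separated from it.

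**Figure D4:**
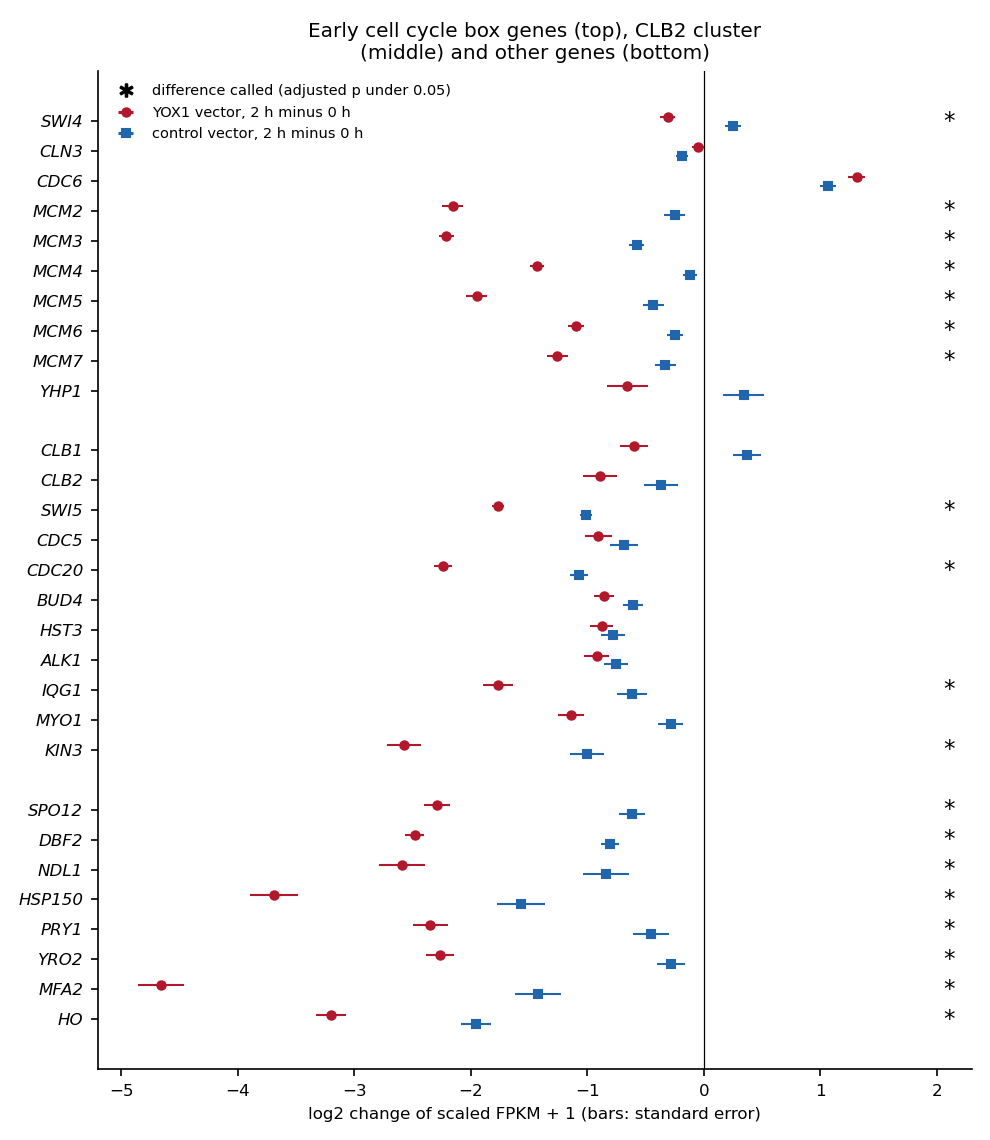
Log2 change over 2 h with the YOX1 vector (red circles, upper) and with the control vector (blue squares, lower) for the 10 ECB genes, genes of the CLB2 cluster and 8 other genes; bars are standard errors of the change from the fit, with 2 libraries per group. Asterisks mark the genes whose difference was called; red and blue are far apart for MCM2 to MCM7, CDC20, KIN3, HSP150 and MFA2 and close together for CDC6, HST3 and ALK1.

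The CLB2 cluster, genes that Mcm1, Fkh2 and Ndd1 turn on in G2 and M, fell as a whole: 12 of 12 were lower in YOX1 cells, with a median of -0.91, against 9 lower and 1 higher in control cells with a median of -0.65. KIN3, a NIMA-related kinase gene, had 5.39 and 5.29 FPKM at 2 h, against 37.4 and 37.6 FPKM at 0 h (log2 change -2.57 ± 0.15). CDC20, an activator of the anaphase-promoting complex, had 5.88 and 5.60 FPKM at 2 h, against 32.0 and 30.9 FPKM at 0 h (log2 change -2.24 ± 0.08), and the transcription factor gene SWI5 had 15.8 and 15.9 FPKM at 2 h, against 59.0 and 55.8 FPKM at 0 h (log2 change -1.77 ± 0.05). The mitotic cyclin genes moved less, CLB2 with 21.2 and 23.2 FPKM at 2 h, against 47.4 and 38.5 FPKM at 0 h (log2 change -0.89 ± 0.14) and CLB1 with 34.7 and 35.5 FPKM at 2 h, against 61.8 and 48.4 FPKM at 0 h (log2 change -0.60 ± 0.12). The change was called as more negative than in control cells for CDC20 (-1.16 ± 0.11), KIN3 (-1.57 ± 0.21), IQG1, of the contractile ring (-1.14 ± 0.18), and SWI5 (-0.75 ± 0.08). It was not for the other 8, among them CLB1, which rose in control cells (log2 change 0.37, difference -0.97 ± 0.17, adjusted p = 0.0505).

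Several genes transcribed as cells leave mitosis and separate were lower. ASH1, the daughter-cell repressor of HO, had 13.8 and 14.9 FPKM at 2 h, against 89.0 and 86.3 FPKM at 0 h (log2 change -2.50 ± 0.05). It fell in control cells too (log2 change -1.80), and the difference of -0.70 ± 0.08 was called. The cell wall gene PIR1 had 107 and 112 FPKM at 2 h, against 635 and 644 FPKM at 0 h (log2 change -2.51 ± 0.08), and EGT2, needed for separation, had 31.2 and 38.4 FPKM at 2 h, against 134 and 154 FPKM at 0 h (log2 change -1.99 ± 0.12). SIC1, an inhibitor of Clb kinases, had 80.1 and 84.4 FPKM at 2 h, against 159 and 146 FPKM at 0 h (log2 change -0.86 ± 0.07). CTS1, the chitinase gene, fell less with the YOX1 vector than with the control vector: it had 352 and 382 FPKM at 2 h, against 589 and 636 FPKM at 0 h in YOX1 cells and 218 and 253 FPKM at 2 h, against 668 and 642 FPKM at 0 h in control cells. HO, the mating-type endonuclease gene, had 5.48 and 6.13 FPKM at 2 h, against 71.9 and 54.8 FPKM at 0 h (log2 change -3.20 ± 0.13), and its change differed from that in control cells (-1.24 ± 0.18).

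All 8 core histone genes, which come in pairs of similar sequence and whose transcripts are made during S phase, were at least 2-fold lower, with a median of -1.49 in YOX1 cells and -1.46 in control cells. HTA1 had 357 and 364 FPKM at 2 h, against 1192 and 1483 FPKM at 0 h (log2 change -1.85 ± 0.14) and HTB1 had 660.0 and 629 FPKM at 2 h, against 2125 and 2232 FPKM at 0 h (log2 change -1.73 ± 0.07). HHF1 had 868 and 852 FPKM at 2 h, against 2813 and 2961 FPKM at 0 h (log2 change -1.72 ± 0.08). HHT2, with a change of -1.05 ± 0.12, moved least. No histone gene had a called difference between the vectors, and in each the 2 h libraries lay below both 0 h libraries.

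MATa-specific genes, which encode the a pheromone, its export and the receptor for alpha factor, were lower for 7 of 7, with a median of -0.83, and in control cells they were lower for 7 of 7 with a median of -0.96. MFA2, an a-factor precursor gene, had 284 and 215 FPKM at 2 h, against 7224 and 5657 FPKM at 0 h (log2 change -4.66 ± 0.20, adjusted p = 2.09e-06), the deepest fall among the genes named here. In control cells it had 1775 and 2040.5 FPKM at 2 h, against 5002 and 5373 FPKM at 0 h, and the difference was -3.24 ± 0.28 (adjusted p = 0.00179). MFA1 had 301 and 175 FPKM at 2 h, against 940.3 and 1111 FPKM at 0 h (log2 change -2.13 ± 0.32), with a difference of -1.15 ± 0.45 that was not called. MFA1 and MFA2 are short, and MFA2 rested on about 23 fragments in its lowest library. STE2, the receptor gene, had 152 and 145 FPKM at 2 h, against 256 and 242 FPKM at 0 h, and its difference was 0.13 ± 0.14. The Mcm1 letters are before all 7 genes, and a called difference was found for MFA2 alone, against 0.676% of all genes tested.

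**Figure D5:**
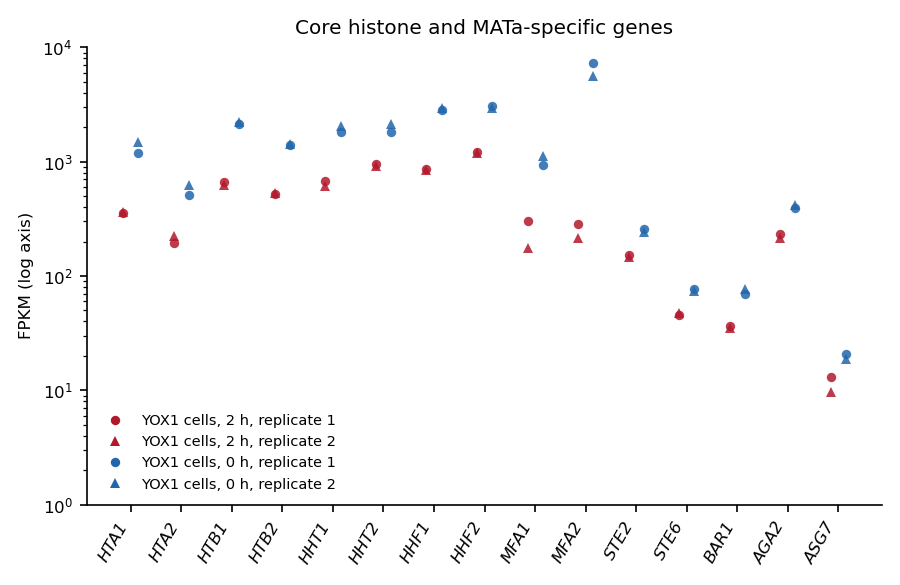
FPKM per library (log axis) of the 8 core histone and 7 MATa-specific genes in YOX1 cells; red marks are 2 h, blue marks 0 h, circles replicate 1 and triangles replicate 2. Every 2 h mark is below both 0 h marks of its gene, with the widest gap in MFA2.

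Pheromone response genes were slightly raised in YOX1 cells, with 6 of 10 higher, 1 lower and a median of 0.30. FUS1, a cell fusion gene, had 13.9 and 12.6 FPKM at 2 h, against 6.70 and 8.04 FPKM at 0 h (log2 change 0.79 ± 0.11), and the agglutinin anchor AGA1 had 14.4 and 12.01 FPKM at 2 h, against 6.44 and 7.61 FPKM at 0 h (log2 change 0.84 ± 0.20). In control cells 1 of the 10 was higher and 1 lower. The difference was not called for any of them (FUS1 0.78 ± 0.16, adjusted p = 0.0969), and the count of 6 fell to 2 without replicate 1 at 2 h and to 2 without replicate 1 at 0 h.

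Genes of the translation machinery split. Of 134 tested genes for cytosolic ribosomal proteins 115 were lower and 2 higher, with a median log2 change of -0.46, and none moved 2-fold. RPL9A, of the large subunit, had 860.5 and 816 FPKM at 2 h, against 1589 and 1612 FPKM at 0 h (log2 change -0.91 ± 0.07). RPL22B, 1 of the 2 that rose, had 135 and 157 FPKM at 2 h, against 117 and 116 FPKM at 0 h (log2 change 0.34 ± 0.10), and neither rise was called without replicate 1 at 0 h or replicate 2 at 2 h. Of 54 mitochondrial ribosomal protein genes 43 were lower and 0 higher, with a median of -0.45. MRPS9, of the small subunit, had 85.8 and 89.3 FPKM at 2 h, against 149.8 and 143 FPKM at 0 h (log2 change -0.71 ± 0.05). The UTP, NOP and RRP factors that assemble ribosomes, by contrast, were higher for 21 of 53 and lower for 4, with a median of 0.13, and UTP18 had 32.1 and 37.2 FPKM at 2 h, against 18.4 and 19.2 FPKM at 0 h (log2 change 0.87 ± 0.09). The count of 21 was 12 without replicate 2 at 2 h, and also 12 when the spread was taken from the 4 libraries alone. The control medians were -0.45, -0.40 and 0.11 for the 3 lists, and no member had a called difference.

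Reserve carbohydrate genes fell with both vectors. Of 16 genes of glycogen and trehalose metabolism, 12 were lower in control cells, with a median of -0.81, and none had a called difference. In YOX1 cells 13 were lower, 7 of them 2-fold, and 1 was higher, with a median of -0.89. That 1, GLG2, was not called when any of the 4 libraries was left out. AGGGG, the letters of the stress response element, stands before 14 of the 16, against 34.1% of all promoters. GSY1, glycogen synthase, had 59.8 and 40.2 FPKM at 2 h, against 413 and 394 FPKM at 0 h (log2 change -2.99 ± 0.17), and GLC3, the branching enzyme gene, had 146 and 104 FPKM at 2 h, against 575 and 553 FPKM at 0 h (log2 change -2.16 ± 0.15). TPS2, trehalose-6-phosphate phosphatase, had 149 and 134 FPKM at 2 h, against 391 and 414 FPKM at 0 h (log2 change -1.48 ± 0.08). RGI1, a gene of respiratory growth, had 102 and 65.4 FPKM at 2 h, against 703 and 776 FPKM at 0 h (log2 change -3.13 ± 0.22). It overlaps YER067C-A, which fell by 3.25 on the log2 scale and cannot be separated from it.

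Among genes of sugar uptake, HXT4, a hexose transporter gene, had 51.1 and 92.6 FPKM at 2 h, against 9.05 and 8.16 FPKM at 0 h (log2 change 2.88 ± 0.21), with the 2 h libraries far apart. MTH1, a regulator of the HXT genes, had 231 and 259 FPKM at 2 h, against 101 and 98.9 FPKM at 0 h (log2 change 1.31 ± 0.06). The high-affinity transporter genes HXT6 and HXT7, which are nearly identical and share reads, were each lower, with log2 changes of -0.91 and -0.92. In all 7 of the 13 were higher and 4 lower, against 6 and 4 in control cells. Glycolysis and fermentation genes were higher for 10 of 19 and lower for 2, against 8 and 3 in control cells. The glyceraldehyde-3-phosphate dehydrogenase gene TDH1 led in YOX1 cells, with 2121 and 2133 FPKM at 2 h, against 572 and 698 FPKM at 0 h (log2 change 1.77 ± 0.16). The 2 that fell were the hexokinase HXK1 (-0.83) and the glucokinase GLK1 (-0.61). Without replicate 2 at 2 h the count of 10 was 6.

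In control cells 4 of 11 gluconeogenic and glyoxylate genes were higher and 2 lower. In YOX1 cells they were divided, 4 higher and 4 lower, against 22.0% and 22.6% of all genes tested. MDH2, cytosolic malate dehydrogenase, had 71.5 and 65.9 FPKM at 2 h, against 308 and 339.8 FPKM at 0 h (log2 change -2.19 ± 0.13), and FBP1, fructose-1,6-bisphosphatase, had 12.5 and 14.2 FPKM at 2 h, against 46.9 and 67.8 FPKM at 0 h (log2 change -1.98 ± 0.33). CIT2, peroxisomal citrate synthase, had 169.5 and 189.8 FPKM at 2 h, against 89.5 and 99.7 FPKM at 0 h (log2 change 0.94 ± 0.12). Without replicate 1 at 0 h, or either replicate at 2 h, 1 of the 11 was higher, and without replicate 2 at 0 h, or either replicate at 2 h, 2 were lower. Of the tricarboxylic acid cycle genes 5 of 14 were lower and 1 higher in control cells. In YOX1 cells 7 were lower, and aconitase, ACO1, had 444 and 416 FPKM at 2 h, against 837 and 864 FPKM at 0 h (log2 change -0.96 ± 0.09). That count was 4 without replicate 1 and 3 without replicate 2 at 2 h. In control cells 2 of 30 respiratory chain and ATP synthase genes were lower and 1 higher. In YOX1 cells 9 were lower, against 22.6% of all genes tested, or 2 under quantile normalization, when 6 were higher. Without replicate 2 at 2 h 4 were lower, and without replicate 2 at 0 h 4 were higher and 8 lower. COR1, a subunit of complex III, had 386 and 429 FPKM at 2 h, against 643 and 683 FPKM at 0 h (log2 change -0.67 ± 0.07), and its difference from control cells was -0.60 ± 0.10 (adjusted p = 0.0479).

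Stress genes did not move as a block. HSP12, which encodes a small membrane-associated stress protein, had 10006 and 16213 FPKM at 2 h, against 2932 and 3208 FPKM at 0 h (log2 change 2.08 ± 0.21), and the small heat shock protein gene HSP26 had 229 and 241 FPKM at 2 h, against 99.7 and 77.2 FPKM at 0 h (log2 change 1.44 ± 0.25). HSP30, a plasma membrane protein gene, had 34.8 and 25.4 FPKM at 2 h, against 221 and 198 FPKM at 0 h (log2 change -2.75 ± 0.17), and HSP42 fell by 1.00 on the log2 scale. Of 17 heat shock and chaperone genes 5 were higher and 4 lower, with a median of -0.02, against 5 and 5 in control cells. Both shares in YOX1 cells are not far from the 22.0% and 22.6% of all genes tested. AGGGG stands before 8 of the 17, or 47.1%, against 34.1% of all promoters. Oxidative stress genes were higher for 9 of 16 and lower for 2, against 10 and 2 in control cells. AHP1, a peroxiredoxin gene, had 6888 and 7939 FPKM at 2 h, against 1659 and 2207 FPKM at 0 h (log2 change 1.98 ± 0.19), and the glutathione reductase gene GLR1 had 257 and 278 FPKM at 2 h, against 158 and 152 FPKM at 0 h (log2 change 0.81 ± 0.05). The peroxidase gene GPX1 fell, at 32.2 and 29.9 FPKM at 2 h, against 73.8 and 73.1 FPKM at 0 h (log2 change -1.19 ± 0.10). The count of 9 was 6 without replicate 1 at 2 h.

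Amino acid and ergosterol genes were raised modestly. Of 27 amino acid genes 17 were higher and 3 lower, with a median of 0.35, against 13 and 4 in control cells with a median of 0.25. CPA1, of carbamoyl phosphate synthesis for arginine, had 226 and 345 FPKM at 2 h, against 61.1 and 74.0 FPKM at 0 h (log2 change 2.06 ± 0.20), and ARG3 had 31.0 and 42.7 FPKM at 2 h, against 9.54 and 10.3 FPKM at 0 h (log2 change 1.80 ± 0.20). HIS4 fell, with 33.2 and 37.9 FPKM at 2 h, against 108 and 118 FPKM at 0 h (log2 change -1.62 ± 0.08). Ergosterol genes were higher for 14 of 23 and lower for none, against 10 and 1 in control cells. ERG25, a methyl sterol oxidase gene, had 480.3 and 556 FPKM at 2 h, against 217 and 241 FPKM at 0 h in YOX1 cells (log2 change 1.20 ± 0.10). With the spread from the 4 libraries alone 8 of 23 were higher. Of 12 genes of the iron regulator Aft1 6 were higher and 0 lower in YOX1 cells, against 7 and 0 in control cells. The reductase FRE1 was among the 6, with 24.4 and 24.2 FPKM at 2 h, against 9.57 and 10.3 FPKM at 0 h (log2 change 1.23 ± 0.17).

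Several other lists held few calls or falls. Purine synthesis genes were lower for 6 of 11 in YOX1 cells and for 6 in control cells. ADE17 was at 23.3 and 25.5 FPKM at 2 h, against 75.8 and 90.7 FPKM at 0 h in YOX1 cells (log2 change -1.70 ± 0.13). Sulfate and methionine genes were higher for 4 of 17 and lower for 4, each a share near the 22.0% and 22.6% of all genes tested, and both counts were 2 without replicate 2 at 2 h. MET6, methionine synthase, had 277 and 245 FPKM at 2 h, against 559 and 575 FPKM at 0 h (log2 change -1.09 ± 0.11). Phosphate genes were higher for 3 of 12 and lower for 2, each not far from the 22.0% and 22.6% of all genes tested. PHO11 and PHO12, which are near-identical copies, each rose by 0.77 on the log2 scale. Autophagy genes were higher for 4 of 35 and lower for 11, against 22.0% and 22.6% of all genes tested. Proteasome genes, RPN4 included, were lower for 7 of 33 and higher for none, a share close to the 22.6% of all genes tested, and without replicates 1 and 2 at 2 h the 7 became 4 and 3. Of 10 meiotic genes 2 were higher and 2 lower, shares near the same 22.0% and 22.6%, and all were at low level.

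Cell wall genes of the PIR, TIR, DAN, PRY and SUN families were lower for 8 of 15 and higher for 2, against 8 and 3 in control cells. HSP150, a secreted PIR protein gene (YJL159W, chromosome X, 120449 to 121690), had 139 and 158 FPKM at 2 h, against 1599 and 2412 FPKM at 0 h (log2 change -3.69 ± 0.21, adjusted p = 7.83e-06). PIR3 had 4.83 and 5.37 FPKM at 2 h, against 41.3 and 48.7 FPKM at 0 h (log2 change -2.88 ± 0.18), and PRY1, which encodes a secreted sterol-binding protein, had 57.7 and 62.5 FPKM at 2 h, against 275 and 361 FPKM at 0 h (log2 change -2.35 ± 0.15). SPI1, a wall protein gene outside the list, had 42.5 and 46.8 FPKM at 2 h, against 317 and 399.8 FPKM at 0 h (log2 change -2.94 ± 0.35). TIR1 rose, at 30.7 and 20.9 FPKM at 2 h, against 9.72 and 11.1 FPKM at 0 h (log2 change 1.23 ± 0.23), and its difference from control cells was 1.73 ± 0.32 (adjusted p = 0.0687).

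The rule for large changes also named YHK8, of a family of drug antiporters, with 133 and 192 FPKM at 2 h, against 10.7 and 10.3 FPKM at 0 h (log2 change 3.82 ± 0.34). It named YNL058C as well, with 5.28 and 5.17 FPKM at 2 h, against 49.3 and 36.2 FPKM at 0 h (log2 change -2.77 ± 0.21), which overlaps YNL057W and shares its reads. Both genes had ranges at 2 h that lay apart from those at 0 h, and neither had a called difference between the vectors.

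Where the response of YOX1 cells differed from that of control cells was tested directly, as the difference of the changes. It was more negative with the YOX1 vector for 46 genes, or 0.676% of those tested, and more positive for 6, or 0.0881%. Of the 46, 42 were lower at 2 h in YOX1 cells, 2 were higher and 2 were not called, while in control cells 27 were lower, 5 higher and 14 not called. At an unadjusted p under 0.05 the counts were 372 more negative and 260 more positive.

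DBF2, a kinase gene of mitotic exit, had 5.91 and 6.61 FPKM at 2 h, against 43.3 and 37.7 FPKM at 0 h in YOX1 cells and 24.2 and 22.0 FPKM at 2 h, against 40.8 and 42.5 FPKM at 0 h in control cells (difference -1.68 ± 0.11, adjusted p = 0.000502). SPO12 had 16.8 and 15.7 FPKM at 2 h, against 86.2 and 83.6 FPKM at 0 h in YOX1 cells and 50.1 and 56.7 FPKM at 2 h, against 81.4 and 85.5 FPKM at 0 h in control cells (difference -1.67 ± 0.16). NDL1, a dynein regulator gene, had 5.45 and 8.32 FPKM at 2 h, against 45.9 and 47.2 FPKM at 0 h in YOX1 cells and 20.6 and 27.0 FPKM at 2 h, against 42.5 and 45.2 FPKM at 0 h in control cells (difference -1.74 ± 0.28). In each the control 2 h libraries stood between the YOX1 2 h libraries and the 0 h libraries.

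Surface and membrane proteins are encoded by others of the 46. HSP150 was at 828 and 764 FPKM at 2 h, against 2539 and 2258 FPKM at 0 h in control cells (difference -2.12 ± 0.29, adjusted p = 0.0183), and PRY1 at 256 and 278 FPKM at 2 h, against 363 and 382 FPKM at 0 h (difference -1.89 ± 0.22). YRO2, a plasma membrane protein gene related to HSP30, had 23.0 and 30.3 FPKM at 2 h, against 136 and 130.0 FPKM at 0 h in YOX1 cells and 109 and 101 FPKM at 2 h, against 132 and 128 FPKM at 0 h in control cells (difference -1.98 ± 0.17). Its paralogue MRH1 differed by -0.87 ± 0.11. Chitin genes CHS1 and CHS7 and GFA1, which supplies the chitin precursor, differed by -0.53 ± 0.08, -0.54 ± 0.08 and -1.03 ± 0.08. Within the pheromone pathway GPA1, the G-protein alpha subunit gene, had 31.9 and 34.2 FPKM at 2 h, against 65.0 and 61.2 FPKM at 0 h in YOX1 cells and 53.7 and 50.6 FPKM at 2 h, against 63.9 and 60.9 FPKM at 0 h in control cells (difference -0.65 ± 0.08). MRH1, CHS1, CHS7, GFA1 and GPA1 were named after their values were seen. The HSP150 call was lost when any library but those of YOX1 cells at 0 h was left out, the NDL1 call without any but replicate 2 of YOX1 cells at 2 h, and the PRY1 call without replicate 1 of control cells at 0 h or of YOX1 cells at 2 h. The Mcm1 letters stand before 13 of the 45 more negative genes that have a promoter window, or 28.9%, against 1.9% of all promoters.

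Of the 8 genes that the study put forward as candidate Yox1 targets, 5 were lower and 2 higher at 2 h in YOX1 cells, with a median of -0.86, against -0.20 in control cells. Since the study chose them partly on this series, their direction is not independent evidence. It compared the YOX1 vector with the control vector at each time, so the counts of 5 and 2 belong to another contrast. The study also required lower RNA in cells without LSM1, and greater HU sensitivity of those cells when the gene was lost. ICS2 had 17.1 and 18.2 FPKM at 2 h, against 49.2 and 50.7 FPKM at 0 h in YOX1 cells and 40.4 and 53.5 FPKM at 2 h, against 46.5 and 47.8 FPKM at 0 h in control cells (difference -1.42 ± 0.16). YML131W rose in both, to 215 and 199.9 FPKM in YOX1 cells at 2 h and to 306 and 350.0 FPKM in control cells at 2 h (difference -0.68 ± 0.10). The other 6, UTH1, ALD6, MMR1, RTC1, RAD54 and PRY3, had no called difference, and that of UTH1 was -0.97 ± 0.18 (adjusted p = 0.0744).

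The 6 more positive genes were YOX1, tV(CAC)D and tV(CAC)H, PTR2, CTS1 and CWP1. The 2 tRNA genes, which have identical values, were listed at 0 in every library but the YOX1 2 h ones, and are given no fold change here. At most 0.25 fragments were inferred behind any of their values in the YOX1 libraries used, so these 2 calls rest on almost no reads. PTR2, a peptide transporter gene, fell in both, with 41.5 and 41.5 FPKM at 2 h, against 64.3 and 70.7 FPKM at 0 h in YOX1 cells and 18.7 and 15.8 FPKM at 2 h, against 58.6 and 56.4 FPKM at 0 h in control cells (difference 1.00 ± 0.14). CWP1, a cell wall mannoprotein gene, had 347 and 309 FPKM at 2 h, against 376 and 379 FPKM at 0 h in YOX1 cells, where it was not called, and 202 and 194 FPKM at 2 h, against 380.4 and 349 FPKM at 0 h in control cells (difference 0.68 ± 0.11). CTS1 differed by 0.74 ± 0.12.

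These differences rest on 2 libraries per group, and 1 library could remove many of them. The count of 46 became 12 without replicate 1 and 23 without replicate 2 of control cells at 0 h, 25 and 28 without replicates 1 and 2 of control cells at 2 h, and 16 and 27 without replicates 1 and 2 of YOX1 cells at 2 h. In every one of the 8 fits that left out a library, 12 of the 46 stayed called: MCM2, MCM3, MCM4, MCM5, CDC20, SWI5, DBF2, SPO12, MFA2, YRO2, GFA1 and YLR297W. Of the more positive genes YOX1 alone stayed called in all 8, and PTR2, CTS1 and CWP1 did not.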

How the data were processed

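RNA of 12 yeast samples was depleted of ribosomal RNA and sequenced with an unstranded kit. The methods describe cultures sampled before and again after galactose and HU were added, and the main fit did not pair these samples. The deposited tables hold FPKM per gene with its status, which the authors made with TopHat2, Cufflinks and Cuffdiff on sacCer3 at default settings; the versions are not given in the sources used here. FPKM was divided by a median-ratio size factor, log2(value + 1) was taken, and group means over all 12 libraries were fitted with limma 3.58.1 in R 4.3.3 (empirical Bayes with trend, Benjamini-Hochberg adjustment, two-sided). Genes that averaged 1 FPKM or more across the YOX1 libraries used and had a completed estimate in all 12 were tested, and fold changes of low genes are understated on this scale. Fragment numbers were inferred from the deposited confidence bounds, and gene p-values measure the spread between 2 libraries per group. Named genes were those with the largest called changes at a level of 10 FPKM and a length of 300 bases or more, the members of the main lists and the 3 members that changed most in the others, apart from those said to be chosen otherwise. Members and gene lists were chosen with earlier results of these data known. Some genes and 1 list are not reported here. Replicate numbers did not pair the samples (correlation of deviations -0.135 to 0.202 between groups). Alternatives changed the scaling, the pseudocount, the filters, the libraries fitted and the block. Figures were drawn with matplotlib 3.10.9.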

Additional observations from a re-analysis of the deposited data

Results flagged for a closer look

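The 12 results below had a change over 2 h that differed between the YOX1 vector and the control vector in a direct test of the difference (limma, interaction of vector and time). On the log2 scale, YOX1 change minus control change, the difference was 5.12 for YOX1, -2.12 for HSP150, -1.98 for YRO2, -1.90 for MCM2 and -1.89 for PRY1. It was -1.74 for NDL1, -1.68 for DBF2, -1.67 for SPO12 and -1.63 for MCM3. The positive differences besides YOX1 were 1.00 for PTR2, 0.74 for CTS1 and 0.68 for CWP1.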

How the results depend on the processing

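No named gene or named difference that was called changed sign under any alternative run, but the respiratory chain list went the other way with quantile normalization, at 6 higher and 2 lower against 0 and 9. The counts in YOX1 cells were 1497 higher and 1537 lower, and 957 and 1047 when only the libraries compared were fitted; requiring a 2-fold change left 210 and 188. Leaving out 1 library at a time gave 964 to 1414 higher and 1092 to 1405 lower genes, and 877 higher and 992 lower genes were called in all 4 of these fits. For the difference between the vectors, the libraries compared alone gave 3 more positive and 21 more negative genes, and a 2-fold limit left 23 of the 46 more negative. Leaving out 1 library at a time gave 1 to 24 more positive and 12 to 41 more negative genes. The 24 arose without replicate 1 of YOX1 cells at 0 h and the 1 without replicate 1 of control cells at 0 h; the cause was not tested. With the replicate block the counts were 1523 higher and 1574 lower genes and 6 more positive and 47 more negative differences, so that it moved no count by over 1.5 times. Without scaling 1338 genes were higher and 1623 lower, and with quantile normalization 1427 and 1498. Among named genes 43 of 2009 values fell below the threshold, in 14 genes, and 5 passed it; among named differences 43 of 216 fell below it, in 6 genes. Of 461 list medians under the alternatives, 399 were classed as the same as in the main fit, 62 as moved and 0 as reversed. Genes with few fragments, such as MFA1 and the tRNA loci, are limited by depth.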

Other observations

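Several genes outside the lists also moved, and they and their groups were picked after their values were seen. Some oxidoreductase genes rose in YOX1 cells: OYE3, of the old yellow enzymes, had 158 and 123 FPKM at 2 h, against 10.2 and 12.4 FPKM at 0 h (log2 change 3.54 ± 0.17), and its paralogue OYE2 rose by 2.22. GTT2, a glutathione transferase gene, had 78.4 and 76.2 FPKM at 2 h, against 9.23 and 14.0 FPKM at 0 h (log2 change 2.68 ± 0.21). ADH6, an alcohol dehydrogenase gene, rose by 1.69, YHB1, the flavohaemoglobin gene, by 1.74, GRE2, which overlaps YOL150C, by 1.71 and FRD1, a fumarate reductase gene, by 1.90. These genes rose in control cells too, by 3.44 for OYE3 and 2.70 for GTT2, and these 7 had no called difference between the vectors. YML131W, of the same group, did (-0.68 ± 0.10, adjusted p = 0.0295). ZRT1, the high-affinity zinc transporter gene, had 178 and 351 FPKM at 2 h, against 26.5 and 31.2 FPKM at 0 h (log2 change 3.10 ± 0.26), and SSU1, which exports sulfite, had 154 and 150.3 FPKM at 2 h, against 27.8 and 30.6 FPKM at 0 h (log2 change 2.37 ± 0.09). Both rose in control cells too, by 2.61 and 2.49. ADH4 and ZPS1, of the same group, rose in YOX1 cells by only 0.44 and 0.33, and no gene of the group had a called difference.

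Inositol genes moved both ways. INO1, inositol phosphate synthase, had 23.7 and 21.4 FPKM at 2 h, against 208 and 273 FPKM at 0 h in YOX1 cells (log2 change -3.32 ± 0.20) and 33.3 and 26.3 FPKM at 2 h, against 189 and 224 FPKM at 0 h in control cells (log2 change -2.73). ITR1, an inositol transporter gene, fell by 1.45 in YOX1 cells and OPI1, which encodes the repressor of INO1, by 0.67, while INO2, which encodes an activator, rose by 0.81. INO4, of the same group, fell (log2 change -0.47 ± 0.15). In control cells the log2 changes were -1.27 for ITR1, -0.57 for OPI1, 0.70 for INO2 and -0.27 for INO4, the last not called. No inositol gene given here had a called difference between the vectors. Some bud neck and cytokinesis genes were lower: HOF1 had 6.04 and 5.55 FPKM at 2 h, against 29.2 and 28.6 FPKM at 0 h (log2 change -2.11 ± 0.19), and CHS2, the chitin synthase of the septum, had 14.1 and 14.5 FPKM at 2 h, against 42.1 and 45.6 FPKM at 0 h (log2 change -1.52 ± 0.11). AIM44 and NIS1 fell by 1.64 and 1.56, and these 4 had no called difference between the vectors. Of the same group, IQG1 did (-1.14 ± 0.18, adjusted p = 0.0365), and MYO1 had a difference of -0.85 ± 0.16 (adjusted p = 0.0651).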
